A study of Mus musculus with 26 samples.

Results

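The genes described here make, sense, take up, move and export cholesterol. They were chosen as a list of 32 symbols, of which Sc4mol and Msmo1 name the same gene. A named probe set was found for 29 of the genes, and Acat2 and Soat1 were not analysed here. The 29 genes are a small part of the 18193 named genes on the arrays, and all 29 passed the filter on dim genes that kept 12734. They were measured in 26 clonal mouse adipose lines of the strain 129SVE from Taconic. Of these, 3 came from the interscapular depot, the seat of classical brown fat (BAT1, BAT6 and BAT8), and 23 came from the inguinal depot beneath the skin, which holds white and beige fat cells. All groups were differentiated in culture and, per the labels' protocols, exposed to forskolin, which raises cyclic AMP, for 4 h. Of the run files of the arrays, that of N13 is the only 1 with a mention of FSK, so the treatment of the other clones rests on the protocols, and no clone is labelled as untreated. The series text gives the dose as 10 micromolar and the sample protocols as 10 millimolar, and the conflict was not resolved. Each line is 1 clone on 1 array (Affymetrix Mouse430_2), so p-values measure the spread between clones and no clone has a repeat culture.

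Cholesterol is built from acetyl-CoA. The first arm of the pathway runs through mevalonate and isoprenoids to squalene, and the second closes and trims the sterol rings. When membrane sterol is low, SCAP escorts the transcription factor SREBP-2, the product of Srebf2, out of the endoplasmic reticulum, and the INSIG proteins hold the complex back when sterol is plentiful. Fat cells store much of their cholesterol unesterified at the lipid droplet, take it up from lipoproteins partly through the receptor SR-BI (Scarb1), and pass it to lipoprotein particles through the pumps ABCA1 and ABCG1.

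Values are log2(intensity + 16) of the brightest probe set of a gene, and a difference of 1 unit is a 2-fold change for bright genes and understates the change of dim ones. Levels of different genes come from different probes and were not ranked against each other. Array medians lay between 40.36 and 45.84 intensity units over all 26 arrays. General adipocyte markers were detected throughout, with 17 of 17 past the filter. Their gene-centred mean, called the adipocyte score below, was 1.33 in BAT1, 0.90 in BAT6 and 0.23 in BAT8, and ranged in inguinal clones between -2.22 (I2) and 1.55 (D12). Ucp1, the heat-producing protein that defines brown fat, was 7.01, 6.37 and 6.19 in BAT1, BAT6 and BAT8, against a lowest of 4.66, a median of 5.67 and a highest of 7.55 in inguinal clones. The depots overlapped in Ucp1, and 3 inguinal clones lay above all the interscapular ones. Of the interscapular arrays, 2 were read on scanner 2 and 1 on scanner 1, as were 11 and 12 inguinal arrays.

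Promoter windows from RefSeq (GRCm38.p6, from 250 bases before to 50 after an annotated start) were found for 22 of the 29 members and searched on both strands. The 9-letter sterol element TCACNCCAC, a form bound by SREBPs, occurred in 1 of the 22, Hmgcs1, and in 1.47% of the 10272 measured genes with a window. CCAAT, the site of the factor NF-Y that works beside SREBPs in many sterol genes, occurred in 18 of 22 members (81.8%) and in 42.86% of measured genes. It stood in all 14 enzyme genes with a window and in 4 of the other 8 members, namely Insig1, Insig2, Npc2 and Srebf2. GGGCGG, the core of an Sp1 site, occurred in 20 of 22 members (90.9%) and 66.61% of measured genes. The cyclic AMP element TGACGTCA was found in 0 members and 3.4% of measured genes. In the windows printed here the sterol element and the CCAAT boxes do not overlap, and 5 of the 22 genes had several windows. Windows of 5 members on which the co-variation turned are shown 5′ to 3′ on the strand of the gene, with capitals for the sterol element and for CCAAT or its reverse ATTGG. They lie at chr13:119690101-119690400 (Hmgcs1, + strand), chr5:28071162-28071461 (Insig1, + strand), chrX:72918271-72918570 (Nsdhl, + strand), chr13:8885356-8885655 (Idi1, + strand) and chr5:4104648-4104947 (Cyp51, - strand).
Hmgcs1: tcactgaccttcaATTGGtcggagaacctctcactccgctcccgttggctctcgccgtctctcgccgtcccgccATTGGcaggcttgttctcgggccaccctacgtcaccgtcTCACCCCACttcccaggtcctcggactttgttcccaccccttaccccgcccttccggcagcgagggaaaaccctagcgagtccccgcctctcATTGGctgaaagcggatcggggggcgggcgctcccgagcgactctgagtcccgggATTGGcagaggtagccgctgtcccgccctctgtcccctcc
Insig1: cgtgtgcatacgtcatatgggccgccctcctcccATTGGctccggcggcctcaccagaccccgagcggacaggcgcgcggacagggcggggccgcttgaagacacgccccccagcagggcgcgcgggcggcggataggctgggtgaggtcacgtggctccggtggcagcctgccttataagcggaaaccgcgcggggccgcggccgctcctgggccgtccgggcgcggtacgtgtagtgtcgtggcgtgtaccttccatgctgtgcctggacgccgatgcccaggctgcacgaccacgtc
Nsdhl: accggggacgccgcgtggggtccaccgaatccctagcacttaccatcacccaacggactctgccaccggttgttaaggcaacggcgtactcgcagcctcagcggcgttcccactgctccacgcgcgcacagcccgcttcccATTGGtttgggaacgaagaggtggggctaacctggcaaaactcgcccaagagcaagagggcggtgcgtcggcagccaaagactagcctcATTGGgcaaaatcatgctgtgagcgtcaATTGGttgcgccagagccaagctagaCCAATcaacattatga
Idi1: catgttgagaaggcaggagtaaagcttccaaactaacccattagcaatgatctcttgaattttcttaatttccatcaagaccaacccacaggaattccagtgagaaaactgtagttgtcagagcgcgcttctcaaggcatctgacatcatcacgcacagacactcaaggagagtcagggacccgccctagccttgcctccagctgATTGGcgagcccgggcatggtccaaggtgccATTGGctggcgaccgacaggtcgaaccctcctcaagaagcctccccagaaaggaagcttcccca
Cyp51: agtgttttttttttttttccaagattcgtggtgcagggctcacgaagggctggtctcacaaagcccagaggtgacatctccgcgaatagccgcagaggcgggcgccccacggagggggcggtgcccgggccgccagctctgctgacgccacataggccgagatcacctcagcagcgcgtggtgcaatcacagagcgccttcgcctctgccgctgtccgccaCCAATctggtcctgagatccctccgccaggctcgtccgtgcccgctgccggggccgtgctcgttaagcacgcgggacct
In Hmgcs1 the sterol element began at position -137, counted with the start base as 0, between 2 ATTGG boxes at -176 and -45. Nsdhl held 4 CCAAT boxes and Idi1 held 2, at -45 and -14, whereas Cyp51 and Insig1 held 1 each, at -29 and -216. A match is a run of letters and not a shown binding site. Only 1 exact form of the sterol element was searched, so a window without it may hold another form.

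Among the inguinal clones most members spread more than the median gene. Their median SD was 0.43, against 0.32 for all genes kept, and 25 of the 29 lay above that level. The 2 sets were not matched for brightness. Each member lay above the array median on at least 23 arrays, where the filter asked for 3. Apoe, the lipid carrier that fat cells and macrophages secrete, was the widest, with a lowest value of 7.28 (I2), a median of 10.45 and a highest of 13.10 (D12), a 56.7-fold range on the log2(intensity + 16) scale. Dhcr7, which reduces 7-dehydrocholesterol to cholesterol, spread 12.04-fold, between 5.11 (A5) and 8.70 (D16). Insig1 spread 9.40-fold and Abcg1 10.7-fold. Dhcr7 and Abcg1 each lay above the array median in 20 of the 23 inguinal clones. Their lowest inguinal values, 18.53 and 30.97 intensity units, were below the lowest array median of 40.36. How much of such low values is background is unknown. The narrowest were Npc2, the lysosomal protein that hands cholesterol on to NPC1 (SD 0.22), mevalonate kinase Mvk (0.23) and lanosterol synthase Lss (0.24). The members with wide and narrow spread thus included enzymes as well as carriers.

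Clone D12 was the highest inguinal clone for 10 members, 8 of them enzymes, and A3 for 4. The mean over the 17 enzymes was 8.94 in BAT1, 8.47 in BAT6 and 7.91 in BAT8, against a lowest of 7.81 (E3) and a highest of 9.05 (D12) in inguinal clones. G10 was the lowest clone for 5 members. Clone I2, which had the lowest adipocyte score of all, had an enzyme mean of 8.33, above that of most clones, and the highest inguinal level of Fdps (9.37) and Mvk (7.13). Cell cycle genes also stood highest in I2, with a mean of 9.47, and their part in these levels was not tested.

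**Figure D1:**
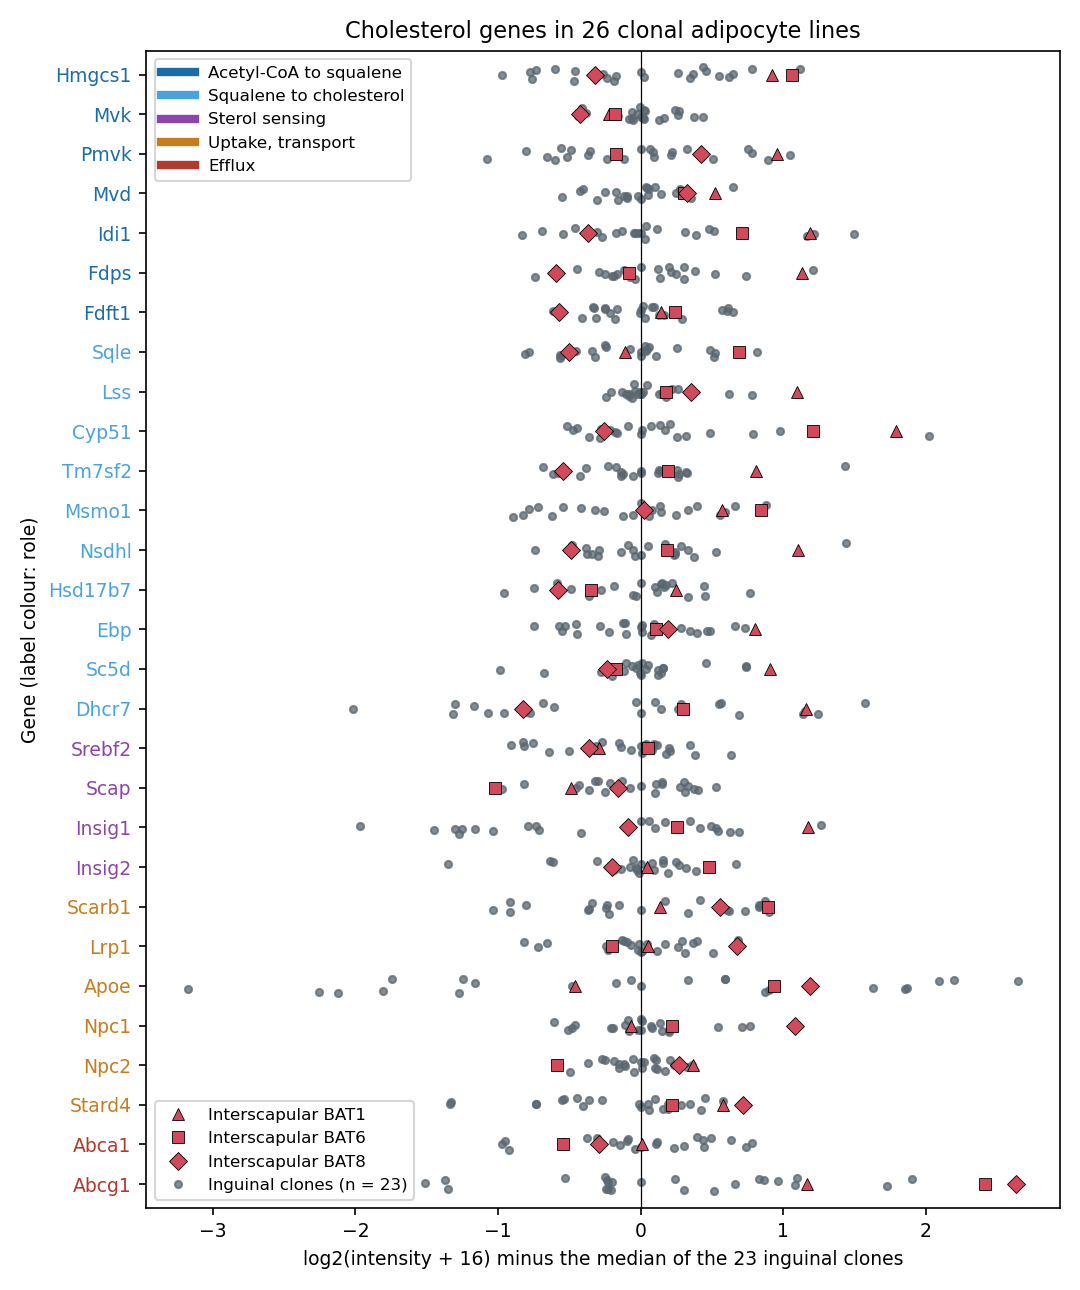
Level of each member in each clone, as log2(intensity + 16) minus the median of the 23 inguinal clones, so 0 is the inguinal median of that gene. Red symbols are the 3 interscapular clones and grey points the inguinal clones. Apoe spreads the widest, and BAT6 and BAT8 stand above every inguinal clone for Abcg1, while BAT1 lies among them.

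How the genes follow the degree of fat cell differentiation was asked with the slope of each gene on the adipocyte score over the 23 inguinal clones (limma, Benjamini-Hochberg adjustment over 12717 genes, threshold 0.05, two-sided). Of the 29 members, 8 rose with the score and 0 fell. Over all genes tested 6.15% rose and 4.06% fell. Without adjustment, at a limma p under 0.05, 12 members had a positive and 1 (Mvk, -0.11) a negative slope. The dimmer probe set of Mvk gave 0.03. The share of all genes under that unadjusted limit was not counted, here or in the fits below. The 8 comprised 5 of 17 enzymes, 1 of 4 sensors, 1 of 6 genes of uptake and transport and 1 of 2 efflux pumps. The median slope was 0.13 over the members and -0.01 over all genes. The member median was 0.07 without D12 and with the fluidics station as a block, 0.06 with the mean of all probe sets of a gene, 0.05 on scanner 2 and 0.21 with the cell cycle mean as a covariate. In bulk cultures, a smaller share of cells that had become adipocytes and less RNA of a gene per cell cannot be told apart.

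Insig1, the sterol-sensing brake on SREBP processing, had a lowest value of 8.53 (G10), a median of 10.50 and a highest of 11.77 (X3). It rose by 0.73 ± 0.11 log2 units (SE) per unit of score, with a limma adjusted p of 4.83e-05. The clones with a score under 0 were mostly low and those above 0 mostly high. Dhcr7 had a median of 7.13 and rose by 0.75 ± 0.14 (limma adjusted p = 0.000502). Hmgcs1, the synthase that makes HMG-CoA at the head of the pathway, lay between 9.48 (G10) and 11.57 (D12) with a median of 10.45. Its slope was 0.44 ± 0.09 (limma adjusted p = 0.000864), and the dimmer probe sets of Hmgcs1 gave between 0.23 and 0.46. Both the first step and the last step of the measured pathway therefore rose with the score.

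Scarb1, which takes cholesteryl ester from HDL, lay between 7.85 (G10) and 9.79 (A5) with a median of 8.88, and rose by 0.48 ± 0.10 (limma adjusted p = 0.00135). Abcg1, which loads cholesterol onto HDL, lay between 5.55 (N13) and 8.97 (D12) with a median of 7.06, and rose by 0.65 ± 0.14 (limma adjusted p = 0.00236). A receptor and an exporter of cholesterol thus both stood higher in clones with a higher score. The dimmer probe set of Abcg1 had a smaller slope of 0.31, with a limma adjusted p of 0.0881. The sterol isomerase Ebp (0.30 ± 0.07, limma adjusted p = 0.00451), the decarboxylating dehydrogenase Nsdhl (0.27 ± 0.08, 0.0271) and the C-4 methyl oxidase Msmo1 (0.29 ± 0.09, 0.0424) had smaller slopes. Msmo1 passed in 10 of the 23 other settings tried.

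Several enzymes had slopes near 0. Idi1, which isomerises isopentenyl diphosphate, lay between 6.54 (B5) and 8.87 (A3) with a median of 7.37, and its slope was 0.03 ± 0.13. Fdps, which makes farnesyl diphosphate, lay between 7.41 (F4) and 9.37 (I2) with a median of 8.16, and its slope was -0.01 ± 0.09. Squalene synthase Fdft1 had a slope of 0.00 ± 0.08, the decarboxylase Mvd 0.02 ± 0.06 and squalene epoxidase Sqle 0.01 ± 0.09. None of these 5 passed. The phosphomevalonate kinase Pmvk (0.28 ± 0.11, limma adjusted p = 0.104), the reductase Tm7sf2 (0.20 ± 0.09, 0.159) and Cyp51, which removes the C-14 methyl group of lanosterol (0.17 ± 0.12, 0.409), did not pass. Lss, which closes the first sterol ring system (0.08 ± 0.05), the desaturase Sc5d (0.13 ± 0.08), the 3-ketosteroid reductase Hsd17b7 (-0.07 ± 0.09) and Mvk (-0.11 ± 0.05) did not pass either. A dimmer probe set turned the sign for Lss (-0.07) and for Sc5d (-0.14). Apoe had a steep slope of 0.83 with a large error of 0.30 (limma adjusted p = 0.0749). Whether the slopes of 2 members differ was not tested.

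The genes that run the sensor had no common direction. Srebf2 lay between 6.53 (E4) and 8.08 (A3) with a slope of -0.04 ± 0.09, and Scap had -0.14 ± 0.08 (limma adjusted p = 0.298). Insig2, the second INSIG protein, had 0.19 ± 0.08 with an adjusted p of 0.149 for its brightest probe set, while its dimmer probe sets gave 0.24 and 0.37 and passed (limma adjusted p = 0.0147 and 0.00357). Among carriers, Npc1 (0.04), Npc2 (-0.01), the sterol carrier Stard4 (-0.04) and the endocytic receptor Lrp1 (-0.10) did not pass. The efflux pump Abca1 had a slope of 0.15 ± 0.11 (limma adjusted p = 0.43).

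**Figure D2:**
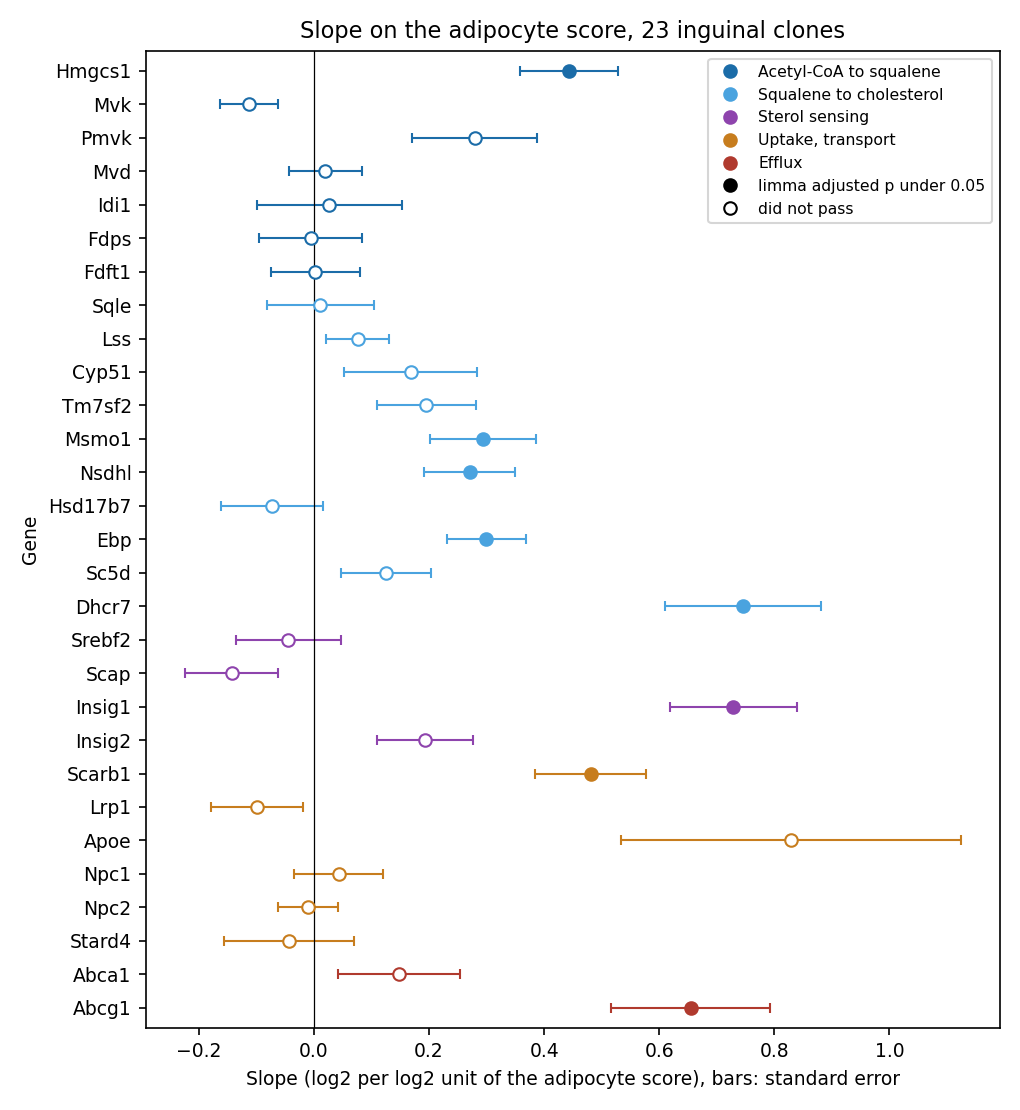
Slope of each member on the adipocyte score over 23 inguinal clones, in log2 units per unit of score, with bars of 1 standard error. Filled points passed at an adjusted p under 0.05. Dhcr7, Insig1 and Abcg1 lie at 0.75, 0.73 and 0.65, while Idi1, Fdps, Fdft1, Mvd and Sqle lie within 0.03 of 0.

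Other measures moved with the score. Of 14 cell cycle genes 11 fell with it, and with the cell cycle mean as a covariate 5 members rose (Insig1, Insig2, Hmgcs1, Scarb1 and Abcg1). With the fluidics station as a block 3 members rose (Insig1, Dhcr7 and Scarb1). On scanner 1 alone 5 rose (Insig1, Dhcr7, Hmgcs1, Ebp and Scarb1), and on scanner 2 alone Abcg1 and Apoe rose. In chip lot 3 alone, which held 11 inguinal arrays, 3 rose (Insig1, Hmgcs1 and Nsdhl). Without D12 the calls of Nsdhl and Msmo1 were lost and 6 remained; without I2 the same 8 genes passed. Without I2 the slope of Idi1 was 0.18 and that of Fdps 0.15, and neither passed.

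**Figure D3:**
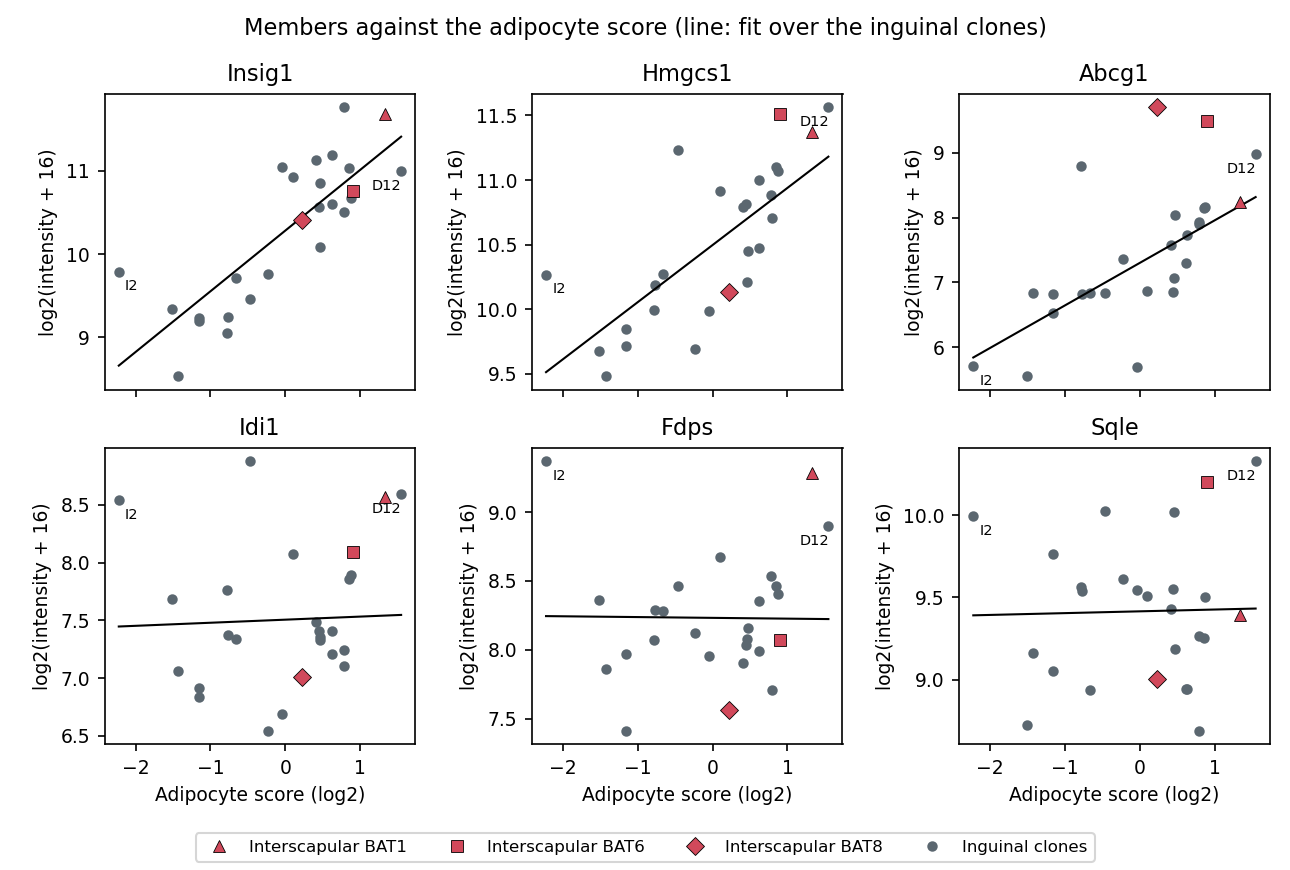
Level of 6 members (log2(intensity + 16)) against the adipocyte score (mean gene-centred log2 level of 17 adipocyte genes). Red symbols are interscapular clones, grey points inguinal clones, and the line is the fit over the inguinal clones. Insig1, Hmgcs1 and Abcg1 climb with the score, whereas Idi1, Fdps and Sqle are as high in I2, at the low end, as in many clones at the high end.

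The enzymes co-varied among the inguinal clones. Over the 136 pairs of enzymes the median Pearson r was 0.31, against 0.01 over all pairs of kept genes, and 29 pairs (21.32%) exceeded 0.5, against 3.81% of all pairs. These correlations over 23 clones are a description and carry no p, since all genes share arrays, batches and the degree of differentiation. The pairs of all genes were not matched to the enzymes for brightness. After the adipocyte score was taken out the median was 0.27. A single clone carried much of it: without D12 the median over enzyme pairs was 0.19 and 17 pairs exceeded 0.5, 12.5% of them, against 4.09% of all pairs.

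The median r with the other 16 enzymes was 0.50 for Hmgcs1, 0.48 for Nsdhl, 0.47 for Idi1 and 0.45 for Cyp51. The r of Cyp51 was 0.76 with Fdps (Spearman 0.80), 0.71 with Idi1 (Spearman 0.72), 0.78 with Tm7sf2 (Spearman 0.60) and 0.76 with Nsdhl (Spearman 0.56). Without the 2 clones farthest from the median of Cyp51 these were 0.69, 0.57, 0.48 and 0.50. Idi1 had an r of 0.75 with Fdps and 0.73 with Fdft1, and without the 2 clones farthest in Fdps or in Fdft1 these were 0.62 and 0.70. A second tight pair was Dhcr7 with Insig1, at 0.82 (Spearman 0.83), and 0.80 without the 2 clones farthest in Dhcr7. After the adipocyte score was taken out it was 0.55, while Cyp51 with Fdps then had 0.80. Msmo1 had 0.74 with Pmvk and 0.72 with Dhcr7, and 0.65 and 0.55 after the score. Idi1 and Dhcr7 had an r of -0.10.

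Outside the enzymes, Abcg1 and Scarb1 had an r of 0.73 (Spearman 0.78), which was 0.46 after the adipocyte score was taken out. Scap had -0.60 with Abcg1 and -0.53 with Scarb1. Npc1, the membrane protein that moves cholesterol out of the lysosome, had its lowest value with Mvk (-0.61) and a median r of -0.20 with the 17 enzymes. The median r with the enzymes was 0.31 for Insig1, 0.20 for Srebf2 and -0.07 for Scap.

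**Figure D4:**
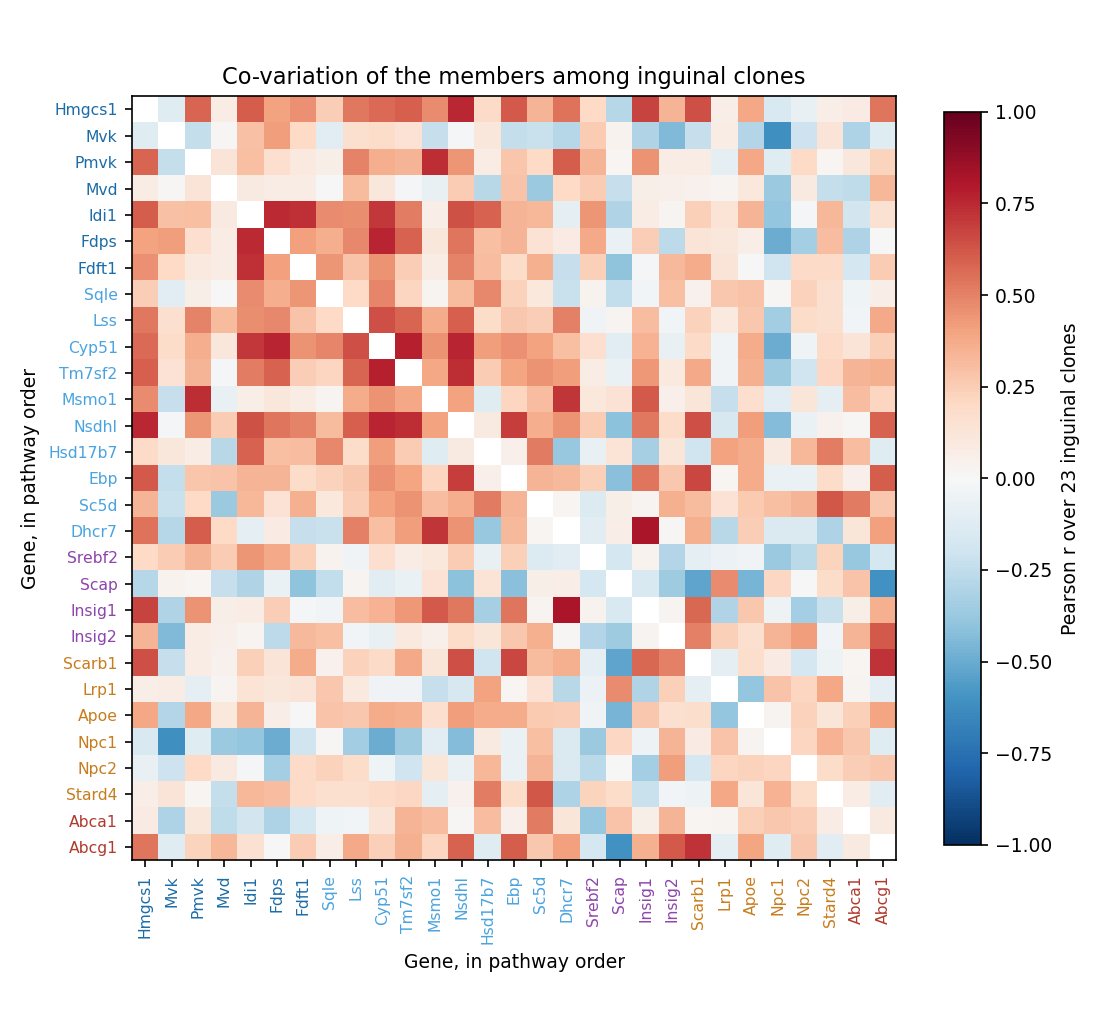
Pearson r between members over the 23 inguinal clones, in pathway order on both axes, with red for positive and blue for negative values. Dhcr7 with Insig1 (0.82), Cyp51 with Tm7sf2 (0.78), Fdps (0.76) and Nsdhl (0.76), and Hmgcs1 with Nsdhl (0.75) are among the reddest cells, and Npc1 has many blue ones.

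The slope of each gene on Hmgcs1 over the inguinal clones gave the genes that follow this enzyme. Of 28 members, 4 rose with Hmgcs1 and 0 fell, and over all genes tested 2.21% rose and 0.0942% fell. At an unadjusted limma p under 0.05, 15 members had a positive and 0 a negative slope. The shares of all genes given here are for adjusted p and are no measure for that count. Nsdhl, which lay between 7.65 (G10) and 9.82 (D12) with a median of 8.38, rose by 0.57 ± 0.11 per unit of Hmgcs1 (limma adjusted p = 0.00512). Insig1 rose by 1.01 ± 0.23 (0.0142), Scarb1 by 0.72 ± 0.18 (0.0282) and Idi1 by 0.63 ± 0.17 (0.0453). On scanner 2 alone, with 11 of the inguinal clones, the slope of Insig1 was -0.05, and its slope on Sqle in place of Hmgcs1 was -0.06. Of the others, Ebp had 0.44 ± 0.12 (limma adjusted p = 0.0529), Tm7sf2 0.45 ± 0.13 (0.0634) and Cyp51 0.56 ± 0.17 (0.0827). Sqle had 0.19 ± 0.15 (limma adjusted p = 0.672), although it belongs to the same pathway.

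The 4 calls differed in how often they held over the other settings: Nsdhl passed in 20 of 26, Insig1 in 17, Scarb1 in 15 of 26 and Idi1 in 9 of 25. Without D12, Nsdhl (0.43) and Insig1 (1.08) passed, and Idi1 (0.56) and Scarb1 did not. Without the 2 clones farthest in Hmgcs1, and with the fluidics station as a block, no member passed in limma. Here 9 and 3 members had an unadjusted limma p under 0.05, with the share of all genes at that limit not counted. Without those 2 clones the slopes were 0.37 for Nsdhl, 0.96 for Insig1, 0.65 for Scarb1 and 0.58 for Idi1, and with the station as a block they were 0.33, 1.06, 1.10 and 0.29. The adipocyte score moved with Hmgcs1, and 15 of 17 adipocyte markers rose with it. With that score as a covariate only Idi1 passed among the members, with a slope of 1.30 (limma adjusted p = 0.00108), and it was 1 of 3 genes called in all. The r of Hmgcs1 with Idi1 was 0.61 as measured and 0.85 after the score was taken out of both.

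The 10 genes outside the list that followed Hmgcs1 most closely, by moderated t over 23 clones, lay outside the sterol lists. Oxct1, which activates ketone bodies for burning, had an r of 0.88 and a slope of 0.76 ± 0.09. Pccb (r = 0.85), Aldh6a1 (0.80) and Hibadh (0.80) act in the breakdown of branched-chain amino acids and propionate. Gstz1 (0.85) acts in tyrosine breakdown, and Mgll (0.79), itself one of the adipocyte markers, splits monoglycerides. Apoc3 (0.78) encodes a lipoprotein component, and Tmem109 (0.84), Myo7b (0.82) and Adtrp (0.79) completed the 10. Their limma adjusted p lay between 0.000227 and 0.00191, in the same fit by which they were picked. The 10 were not followed through the other settings. Over all genes that fit called 3 with the adipocyte score as a covariate and 5 without the 2 clones farthest in Hmgcs1. It called 1 on scanner 2 and 0 with the fluidics station as a block.

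Between the depots, Abcg1 was the member that differed. It was 8.23 in BAT1, 9.48 in BAT6 and 9.70 in BAT8, against a lowest of 5.55 (N13), a median of 7.06 and a highest of 8.97 (D12) in inguinal clones. BAT6 and BAT8 stood above every inguinal clone, and BAT1 above 21 of the 23, so the depots overlapped. The means were 9.14 ± 0.79 (SD, n = 3) in interscapular and 7.23 ± 0.91 (n = 23) in inguinal clones, a difference of 1.91 ± 0.51 (SE, limma adjusted p = 0.0164). The dimmer Abcg1 probe set gave 1.65 (limma adjusted p = 0.00426). Of 29 members 1 was higher in interscapular clones and 0 were lower. Members were thus called no more often than all genes, of which 4.55% were higher and 5.65% lower. At an unadjusted limma p under 0.05, 5 members were higher and 1 (Scap) lower, with the share of all genes at that limit not counted. For 0 members did the depots fail to overlap, and 2.87% of all genes had no overlap. The median difference was 0.34 over the members and -0.02 over all genes. The member median was 0.16 without BAT1, 0.15 with the chip lot as a block, 0.05 with the adipocyte score as a covariate and 0.16 with the cell cycle mean. It was 0.04 in scan session 2, -0.11 on scanner 1 and -0.09 on fluidics station 1, each with 1 interscapular array, and 0.52 on station 8.

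The Abcg1 call needed BAT6 and BAT8. Without BAT6 the difference was 1.73 (limma adjusted p = 0.127) and without BAT8 1.63 (0.119), whereas without BAT1 it was 2.36 (0.0165). Within scan session 1 the difference was 1.66, on scanner 2 1.77, in chip lot 2 1.67 and on fluidics station 8 1.99. None of these passed. They held fewer arrays, and the cause of the lost calls was not tested. With 1 interscapular array each, the difference was 2.19 within session 2, 2.34 on scanner 1 and 1.75 on station 1. With the adipocyte score as a covariate it was 1.35 (limma adjusted p = 0.0576) and with the cell cycle mean 1.503 (0.116). ABCG1 is also abundant in macrophages. The summed intensity of 11 macrophage and leukocyte markers was 2166 to 2894 in interscapular clones, against 798 to 3603 with a median of 1322 in inguinal clones, where 22 clones lay below all interscapular ones and 1 above. Of the 7 of these markers past the filter, 6 had a difference above 0 and 1 passed, Cd68 (9.50 ± 1.11 in interscapular and 7.39 ± 0.74 in inguinal clones). Cd68, Adgre1, Cd14, Csf1r and Fcer1g lay above the array median on all 26 arrays, with differences of 0.29 for Adgre1, 0.55 for Cd14, 0.42 for Csf1r and -0.04 for Fcer1g, while Ptprc, Itgam, Cd163 and Tyrobp lay below it on all 26. The actin 3′ to 5′ log2 ratio, a sign of RNA integrity, was highest in BAT6 (1.15), against at most 0.99 in inguinal clones. With that ratio as a covariate Abcg1 still passed. The summed intensity of 14 cell cycle markers was 4695 to 4839 in interscapular clones, against 4075 to 15371 with a median of 7643 in inguinal clones. That of 11 preadipocyte and fibroblast markers was 46736 to 64725 in interscapular clones, against 52428 to 98896 with a median of 76203 in inguinal clones, where 19 clones lay above all interscapular ones, and 3 of the 11 markers were called lower in interscapular clones. The part of the macrophage and fibroblast markers in the Abcg1 difference was not tested.

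The enzymes gave no call between depots, and the interscapular clones disagreed among themselves. Cyp51 was 10.61 in BAT1, 10.03 in BAT6 and 8.56 in BAT8, against a lowest of 8.30 (E3), a median of 8.82 and a highest of 10.85 (D12) in inguinal clones. BAT1 and BAT6 were near the top and BAT8 below the inguinal median. The difference was 0.82 ± 0.36 (limma adjusted p = 0.147). It passed in 2 of the 28 other settings, on scanner 2 and without BAT8, in the latter with a difference of 1.41. Both settings leave out BAT8. Over the 28 settings the difference ran from -0.26 to 1.70, and in 2 it was below 0. Hmgcs1 was 11.37, 11.51 and 10.13 in BAT1, BAT6 and BAT8, against 9.48, 10.45 and 11.57 as the lowest, median and highest inguinal values, and the difference of 0.56 ± 0.34 did not pass (limma adjusted p = 0.319). Idi1 was 8.56, 8.09 and 7.01 in the same order, against 6.54, 7.37 and 8.87, with a difference of 0.38 ± 0.36. Fdps was 9.29, 8.07 and 7.56, against 7.41, 8.16 and 9.37, with a difference of 0.07 ± 0.27. For each of these genes BAT8 was the lowest of the interscapular clones, as it was for the adipocyte score. Among all enzymes the lowest was BAT6 for Lss, Ebp, Mvd and Pmvk and BAT8 for the rest. Whether these levels follow the score among interscapular clones was not tested.

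Lss was 8.26, 7.35 and 7.52 in BAT1, BAT6 and BAT8, against 6.92, 7.17 and 7.95 as the lowest, median and highest inguinal values. All 3 interscapular clones lay above the inguinal median, and the difference was 0.48 ± 0.17 (limma adjusted p = 0.0695). Insig1 was 11.68, 10.76 and 10.41, against 8.53, 10.50 and 11.77, with a difference of 0.75 ± 0.49 (0.35). Dhcr7 was 8.29, 7.42 and 6.30, against 5.11, 7.13 and 8.70, with a difference of 0.34 ± 0.55 (0.749). The other members had differences between -0.50 (Scap) and 0.68 (Stard4, 8.01 ± 0.25 in interscapular and 7.34 ± 0.53 in inguinal clones), and none passed. Apoe was 9.99, 11.39 and 11.64 in BAT1, BAT6 and BAT8, against 7.28, 10.45 and 13.10, and its difference of 0.55 had an SE of 0.90.

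The slope on Ucp1 over the inguinal clones used 1 gene of the heat-producing programme. Ucp1 was dim there, with an inguinal median of 34.74 intensity units, below the lowest array median of 40.36. How much of its low values is background is unknown. Of 29 members, 1 rose and 0 fell with Ucp1, where 1.37% and 0.11% of all genes did. At an unadjusted limma p under 0.05, 8 had a positive and 0 a negative slope, and the share of all genes at that limit was not counted. Scarb1 rose by 0.54 ± 0.12 per unit of Ucp1 (limma adjusted p = 0.025), and it also rose with the adipocyte score. Hmgcs1 had 0.43 ± 0.12 (limma adjusted p = 0.0636). The Scarb1 call held in 12 of the 23 other settings, with slopes between 0.28 and 0.82 over all 23, and was lost with the scan session, chip lot or fluidics station as a block and within session 1, scanner 1, scanner 2 or lot 3 alone. With the adipocyte score as a covariate, or without D12, which had the highest Ucp1 of the inguinal clones, no member passed in limma, and 0 and 5 had an unadjusted p under 0.05.

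A wider list of 31 measured sterol genes outside the members was set beside them. Between depots, 2 were higher in interscapular clones and 0 lower, a share near the 4.55% of all genes that were higher, while 5.65% were lower. Vldlr, a lipoprotein receptor, was 11.23, 11.99 and 12.65 in BAT1, BAT6 and BAT8, against a lowest of 9.11, a median of 10.53 and a highest of 11.85 in inguinal clones, a difference of 1.39 ± 0.36 (limma adjusted p = 0.0115). Tmem97, a membrane protein that regulates NPC1, was 8.27, 8.28 and 8.26, against 6.76, 7.42 and 8.12, a difference of 0.86 ± 0.20 (limma adjusted p = 0.00559). For Tmem97 every interscapular clone lay above all 23 inguinal clones, and 2.87% of all genes had no overlap between depots. How many of the 31 had none was not counted. Vldlr and Tmem97 were not followed through the other settings, so how firm their calls are was not tested. With the adipocyte score 6 of the 31 rose and 1 fell, where 6.15% and 4.06% of all genes did.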

How the data were processed

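Per the labels' protocols, biotinylated cRNA made from total RNA of each of the 26 clonal lines went onto an array of its own. The values the authors deposited are linear intensities of probe sets. Their summarisation and scaling are not stated in any source used here. The 26 experiment files are lists of run settings, and they gave scanner, chip lot and fluidics station as batches; a scan session joined scan dates at most 3 days apart.

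Of 45101 probe sets, 64 were controls, 34945 carried 1 symbol, 932 several and 9160 none in the platform annotation, and the last 2 kinds were left out. Of those with 1 symbol, 34741 matched RefSeq. Values were used as log2(intensity + 16) without scaling. The brightest probe set stood for a gene, and genes above the median of the array on fewer than 3 arrays were dropped. Depots (interscapular minus inguinal) and slopes over the 23 inguinal clones were fitted in R 4.3.3 by lmFit and eBayes of limma 3.58.1. P-values were adjusted by Benjamini-Hochberg over all genes kept, with a threshold of 0.05. Correlations and promoter matches are descriptions.

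The members and lists were chosen with earlier results of these data known. Named were all members, the wider sterol genes past the depot threshold and the 10 genes most like Hmgcs1 by moderated t. On simulated arrays of 12734 genes, the depot fit recovered 74% of planted differences of 1 and 95% of 2, with 9 false calls. The Hmgcs1 fit recovered 53% of slopes of 0.5 and 94% of 1, with 8 false calls. The simulated noise was independent between genes, with the inguinal SD and without batches or shared differentiation. These shares and false calls therefore need not hold for the real arrays. Alternatives covered scaling, pseudocount, filter, probe sets, batches, covariates and left-out clones. The number of arrays limits the precision, most of all the 3 interscapular clones. Figures were drawn with matplotlib 3.10.9.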

Additional observations from a re-analysis of the deposited data

How the results depend on the processing

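Between depots, 1299 genes and 1 member were called. Fewer genes were called with the fluidics station as a block (622), in scan session 1 (550) and 2 (208), on scanner 1 (101) and 2 (644), in chip lot 2 (99), on station 8 (67) and 1 (25), and with the adipocyte score (840) or the cell cycle mean (693) as a covariate. Without each interscapular clone in turn 440 to 883 genes and 0 to 1 members were called; without BAT8 the member was Cyp51. The members called were 2 with the mean of all probe sets (Abcg1 and Lss), without A3, A5, N13 and X3 (Abcg1 and Mvd) and with the actin ratio as a covariate (Abcg1 and Stard4). They were 0 in session 1, in lot 2, on station 8 and with the adipocyte or cell cycle covariate. There 2 to 5 members had an unadjusted limma p under 0.05, with the share of all genes at that limit not counted.

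For the adipocyte score, 1298 genes and 8 members were called. With the station as a block these were 489 and 3, on scanner 1 414 and 5, on scanner 2 484 and 2, with the cell cycle covariate 437 and 5, and in lot 3 375 and 3. Genes called were 825 with the lot as a block, 806 without the 2 clones farthest in score and 790 without I2.

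For Hmgcs1, 294 genes and 4 members were called. These were 609 and 9 with array weights, 491 and 7 without A3 and A5, 108 and 2 without D12, 5 and 0 without the 2 farthest clones, 3 and 1 with the adipocyte covariate, 0 and 0 with the station as a block, 1 and 0 on scanner 2, 4 and 0 with Idi1 in place of Hmgcs1 and 0 and 0 with Sqle. Genes called were 193 with the session as a block, 163 with the cell cycle covariate and 191 in lot 3. The slope of Insig1 was -0.0535 on scanner 2 and -0.0584 on Sqle, the 2 settings that turned the sign of a called member, and the cause was not tested.

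For Ucp1, 188 genes and 1 member were called. These were 39 and 0 with the session, 37 and 0 with the lot and 0 and 0 with the station as a block, 4 and 0 in session 1, 0 and 0 on scanner 2, 0 and 0 with the adipocyte covariate, 12 and 0 without the 2 farthest clones, 28 and 0 with the cell cycle covariate, 51 and 0 in lot 3 and 19 and 0 without D12. Genes called were 123 with a pseudocount of 64 and 94 without I2, and members 2 with a pseudocount of 1 and 2 without A3 and A5. The causes of these shifts were not tested. Single batches and left-out clones also leave fewer arrays.

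Covariates of cell cycle and actin, single stations, lot 3 and the clones A3, A5, N13, X3, D12 and I2 left out in part or alone were chosen after seeing the data. Members not called in the main fits changed sign in some settings, among them Cyp51 between depots, which passed in others. No paired analysis was made, because the labels tie no interscapular clone to an inguinal one. Dim probe sets limit what can be seen, since the level of background is unknown.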
